A study of Bos taurus with 47 samples.

Results

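Between blastocysts made by somatic cell nuclear transfer (scNT) and blastocysts made by in vitro fertilization (IVF), 4 bovine genes of the 20526 in the table stood out for a large difference in level, with 3 of them near or at 0 in one method. They were chosen by their normalized read counts in the scNT and IVF blastocyst libraries: ENSBTAG00000039787 and ENSBTAG00000037925 were higher in scNT blastocysts, ENSBTAG00000001998 and ENSBTAG00000046796 in IVF blastocysts. The blastocyst values are therefore given without a test, and the tests ask whether the difference was present at earlier stages or afterwards. The identifiers are paired with no gene name or sequence in the sources used here, so no function is given for any of them.

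The study measured mRNA in 47 libraries of 12 groups. The scNT groups were 2-cell embryos (day 2), 8-cell embryos (day 3), morulae (day 6), blastocysts (day 8) and cells derived from blastocysts. The IVF groups covered the same 5 steps on the same days, and the starting cells were fibroblasts and mature (MII) oocytes. Embryos were collected in pools of 20. Every group had 4 libraries except scNT morulae, which had 3 (numbers 2, 3 and 4). Per the labels, the fibroblast cultures came from an ear biopsy of a Brahma Spanish bull cross, the donor cells were serum-starved fibroblasts of passages 4 to 5, and IVF used semen of a Holstein bull. Zygotes of the IVF group were grown on cumulus cells. The nuclear genome, the sex of the embryos where it differs, and the method therefore go together between scNT and IVF samples and cannot be told apart. The same holds for culture on cumulus cells, where it was used for IVF zygotes only. The culture of the blastocyst-derived cells was not given in the sources used here.

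In scNT an oocyte without its own chromosomes receives a somatic nucleus, whose expression programme has to be reset to an embryonic one. In both kinds of embryo the first divisions run largely on RNA stored in the oocyte, and in cattle the embryo's own genome takes over most transcription around the 8-cell stage. A blastocyst consists of an inner cell mass and a surrounding trophectoderm.

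The values are normalized read counts. The libraries held between 4608099 and 16642362 recovered reads, and scNT and IVF morulae held 5663196 to 8168033 and 4783919 to 8241675. A single read was worth between 0.477 and 2.04 normalized counts, depending on the library. Replicate libraries correlated on the log2 scale at a mean r of 0.907 or more with the rest of their group, the lowest being fibroblast replicate 3. The labels do not say whether replicates came from different animals or culture runs. The p-values therefore cover the spread between these libraries, part or all of which may be technical.

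In blastocysts ENSBTAG00000039787 had 165.7, 120.8, 142.5 and 149.9 normalized counts in the 4 scNT libraries, against 0, 0, 1.3 and 0 in the 4 IVF libraries. The IVF value above 0 was a single read, against 389 reads in the scNT libraries. Scaled for depth the ratio of scNT to IVF was 340. Its 95% counting interval of 60.6 to 13500 covers counting error only. Since these values chose the gene, ratio and interval are a description and not support. In the same stage ENSBTAG00000037925 had 485.6, 357.7, 433.7 and 214.7 in scNT libraries and 35.3, 22.5, 25.4 and 35.7 in IVF libraries, which made it 12.4 times higher in scNT blastocysts after scaling for depth. This gene was not off in either method: it had reads in 47 of 47 libraries, and the word on-off describes it poorly.

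The other pair ran the opposite way. ENSBTAG00000001998 had 1.7, 3.1, 0 and 6.4 normalized counts in scNT blastocysts, against 111.6, 140.8, 153.6 and 90.1 in IVF blastocysts. ENSBTAG00000046796 had 0, 0, 7.7 and 7.6 in scNT blastocysts, against 174.8, 71.4, 57.1 and 133.2 in IVF blastocysts. For each of the 4 genes the scNT and IVF blastocyst libraries did not overlap, as the choice requires. Since each pool is bulk RNA, fewer cells with a transcript and less RNA per cell cannot be told apart, at this or any other stage.

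A blastocyst rule was set for comparison: a limma adjusted p under 0.05 and libraries of the methods that did not overlap. The mean over both blastocyst groups together also had to be 50 normalized counts or more. Under it the 4 genes were the first and second in each direction by log2 difference, of 255 genes higher in scNT and 292 higher in IVF blastocysts. On the log2(value + 1) scale their differences, scNT minus IVF, were 6.88, 3.57, -5.35 and -5.08. The next gene in the scNT direction differed by 3.24 and the next in the IVF direction by -4.20. In this comparison 5.95% of 12607 genes were called. The number called was 750 in all, 316 and 381 without IVF blastocyst replicates 2 and 3, and 396, 451 and 378 without scNT blastocyst replicates 1, 3 and 4.

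**Figure D1:**
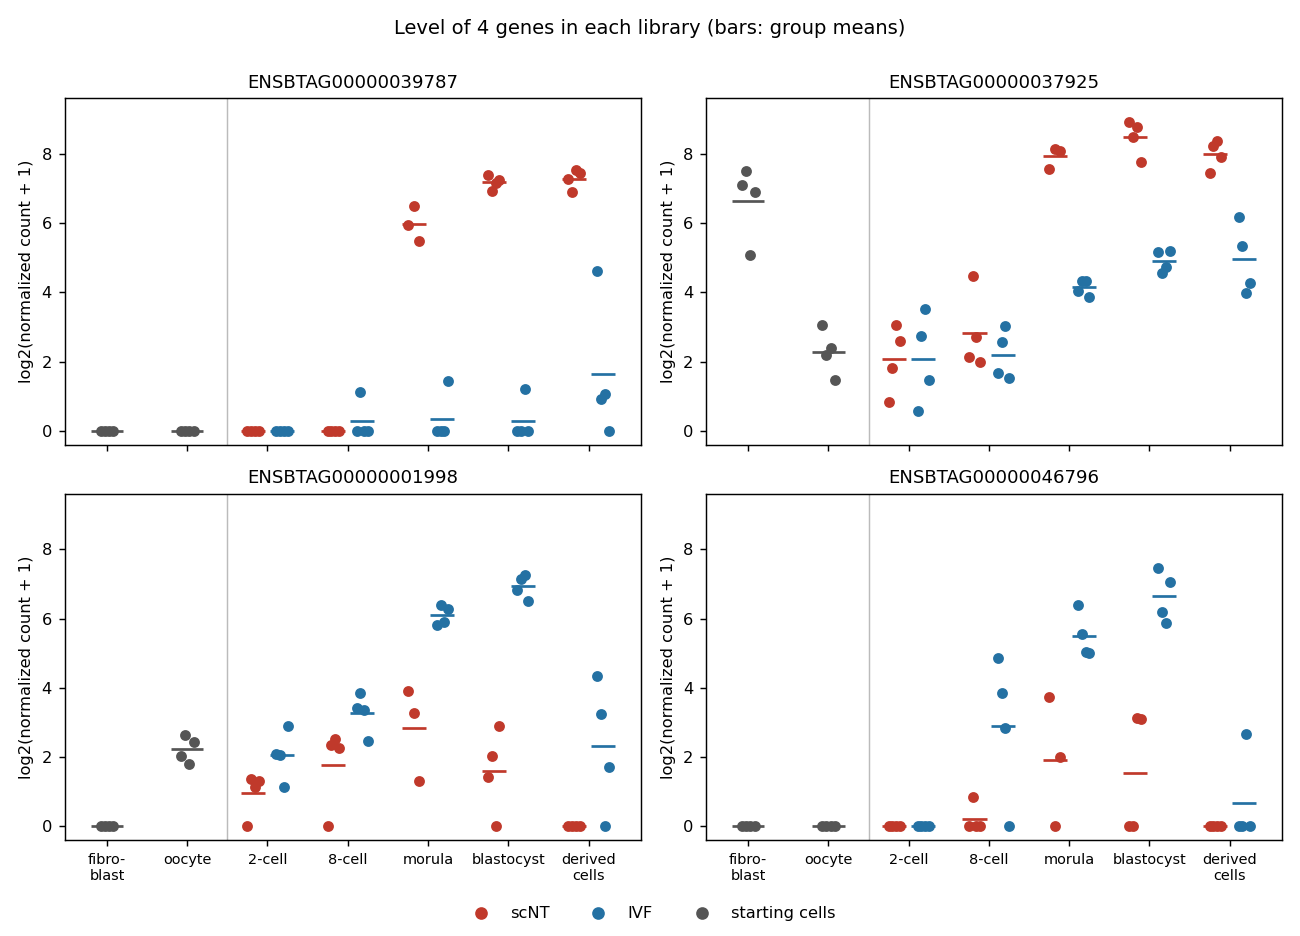
Level of each gene in each of the 47 libraries as log2(normalized count + 1), with scNT libraries left of IVF libraries at each stage, fibroblasts and oocytes at the left of each panel, and bars at the group means. All 4 genes sit between 0 and 28.3 normalized counts in oocytes, 2-cell and 8-cell embryos, and in morulae the scNT and IVF libraries of each gene do not overlap.

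In morulae, whose libraries took no part in the choice, all 4 genes differed between the methods in the direction seen in blastocysts (4 of 4 tested, against 18.7% of 13590 genes called in this comparison). For all of them but ENSBTAG00000037925 the group where the gene was high is what carried it past the filter on low values, so the count itself is a description. ENSBTAG00000039787 had 60.2, 88.4 and 43.8 normalized counts in the 3 scNT libraries, against 0, 0, 0 and 1.7 in the 4 IVF libraries. Its mean was 64.1 ± 22.6 (SD, n = 3) in scNT and 0.425 ± 0.85 (SD, n = 4) in IVF morulae. The IVF level rested on 2 reads, against 164 in scNT morulae. Scaled for depth the ratio of scNT to IVF was 111, with a 95% counting interval of 30.3 to 925. The log2 difference was 5.61 with a standard error of 0.60 (limma, Benjamini-Hochberg adjusted p = 0.00708).

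ENSBTAG00000037925 had 190.0, 279.0 and 272.0 normalized counts in scNT morulae, against 15.4, 19.3, 19.2 and 13.7 in IVF morulae. The lowest scNT library was thus well above the highest IVF library, and the depth-scaled ratio of the groups was 14.4. The log2 difference was 3.78 with a standard error of 0.26 (limma adjusted p = 0.000673).

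ENSBTAG00000001998 had 14.1, 8.7 and 1.5 normalized counts in scNT morulae, against 55.5, 83.2, 58.8 and 77.2 in IVF morulae. Low levels were present in every scNT morula library, and none reached the IVF range. The log2 difference was -3.26 with a standard error of 0.57 (limma adjusted p = 0.0129). Without IVF morula replicate 2 it was -3.17 and was not called (limma adjusted p = 0.0559), while it stayed called without any other single library.

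ENSBTAG00000046796 had 12.2, 0 and 3.0 normalized counts in scNT morulae, against 83.3, 46.1, 32.1 and 30.9 in IVF morulae. The groups did not overlap, but the scNT values were spread from no read to 13 reads. The log2 difference was -3.59 with a standard error of 0.80 (limma adjusted p = 0.0226). This call was the least secure of the 4: without IVF morula replicates 1, 2, 3 and 4 in turn the limma adjusted p was 0.0523, 0.0709, 0.0521 and 0.0523, and it was 0.0526 with a pseudocount of 0.1.

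For each gene a two-sided exact permutation test over the 7 morula libraries gave p = 0.0286, the smallest this design allows. The number of members called was 2 without IVF morula replicate 2, and 3 without IVF morula replicate 1, 3 or 4. The count of all genes called in morulae also moved, being 2542 with every library and 1461, 114, 776 and 713 without IVF morula replicates 1 to 4.

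**Figure D2:**
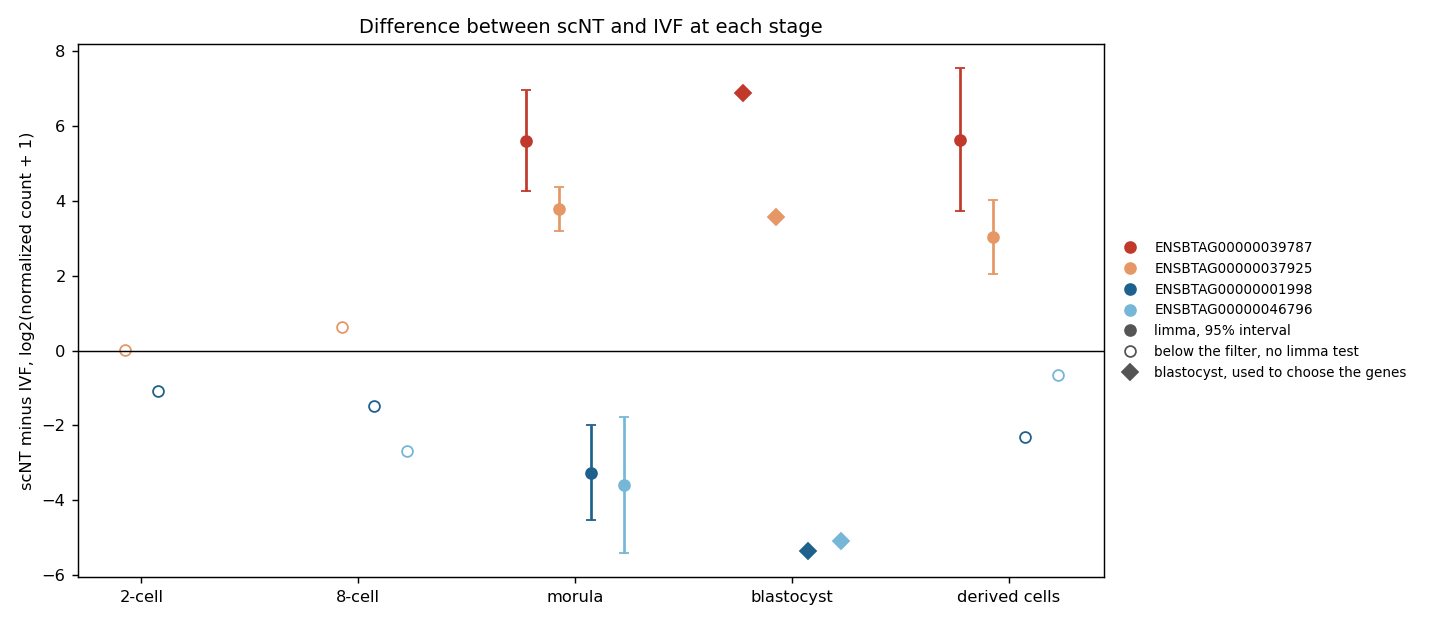
Difference between scNT and IVF (scNT minus IVF, on the log2(normalized count + 1) scale) for each gene at each stage, with limma 95% intervals where the gene passed the filter on low values, open circles where it did not, and diamonds for the blastocyst differences that chose the genes. Points are left out where both methods were at or under 3 reads. In morulae the differences are 5.61, 3.78, -3.26 and -3.59, and in derived cells only the genes higher in scNT keep an interval.

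Before the morula the genes were low, at 28.3 normalized counts or less in every 2-cell and 8-cell library. Only ENSBTAG00000039787 was at or under 3 reads in each of these groups. At the 2-cell stage 0 of 4 genes passed the filter, which asks for 10 normalized counts in 4 libraries, and limma called 0.0328% of the 12195 genes that did. ENSBTAG00000039787 and ENSBTAG00000046796 had no read in any of the 4 scNT or 4 IVF libraries, where 3 reads over a group would correspond to 0.643 normalized counts in scNT and 0.481 in IVF 2-cell embryos. ENSBTAG00000037925 had 0.8, 2.5, 7.4 and 5.1 normalized counts in the scNT libraries of this stage, against 0.5, 5.7, 10.4 and 1.8 in the IVF libraries, and the groups overlapped (exact permutation p = 1). ENSBTAG00000001998 had 0, 1.6, 1.2 and 1.5 in the scNT libraries, against 3.3, 3.2, 1.2 and 6.4 in the IVF libraries. The highest scNT value lay above the lowest IVF value, and the difference was not called (log2 difference -1.09, exact permutation p = 0.114). With same-numbered libraries paired, an exact sign-flip test gave p = 0.25. Replicate 3 had 1.2 in both methods, so this is the smallest p these pairs allow. Without IVF 2-cell replicate 3, which held the lowest IVF value, the difference was -1.40 (exact permutation p = 0.0286). No other IVF library overlapped the scNT values, so this omission fixes that p in advance, and it is not support.

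At the 8-cell stage 0 of 4 genes passed the filter as well, and limma called 0 of 13000 genes (0%), with 1642 at an unadjusted p under 0.05. The edgeR fit called 0 and DESeq2 378. With same-numbered libraries paired, as 8-cell libraries deviated together, limma called 168. Without IVF 8-cell replicate 4 limma called 82, and 1 without scNT 8-cell replicate 2. ENSBTAG00000039787 had no read in scNT 8-cell embryos, and a single read in 1 of 4 IVF libraries. ENSBTAG00000037925 had 3.4, 21.3, 5.6 and 3.0 normalized counts in the scNT libraries of this stage, against 2.2, 4.9, 7.1 and 1.9 in the IVF libraries. The high scNT value belonged to replicate 2, and the groups overlapped (log2 difference 0.64, exact permutation p = 0.4). With same-numbered libraries paired, the exact sign-flip test gave p = 0.25.

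The pair higher in IVF blastocysts was already low but countable in IVF 8-cell embryos. ENSBTAG00000001998 had 0, 4.1, 4.7 and 3.8 normalized counts in the scNT libraries of this stage, against 9.7, 13.5, 9.2 and 4.5 in the IVF libraries. Only the highest scNT and the lowest IVF library overlapped, and the log2 difference of -1.49 had an exact permutation p = 0.0571. Within same-numbered libraries it was lower in scNT in 4 of 4 pairs, where the exact sign-flip test gave p = 0.125, the smallest that 4 pairs allow. ENSBTAG00000046796 had 0, 0.8, 0 and 0 in the scNT libraries, against 28.3, 13.5, 6.1 and 0 in the IVF libraries. It thus had reads in 3 of 4 IVF libraries, 55 reads in all, and 1 read in the scNT libraries. The log2 difference of -2.68 was not called (exact permutation p = 0.143). For this gene the exact sign-flip test over same-numbered pairs gave p = 0.25. Replicate 4 was at 0 in both methods, so this is the smallest p these pairs allow. The IVF library at the low end was replicate 4 for both genes. Without it the differences were -1.76 and -3.64, each with an exact permutation p = 0.0286, the smallest possible. No other IVF library overlapped the scNT values, so leaving replicate 4 out fixes this p in advance, and it is not support. With equal library totals or median-of-ratios scaling ENSBTAG00000001998 also reached an exact permutation p = 0.0286 at this stage.

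A fit over the 3 stages before the blastocyst, with stage as a term, gave log2 differences of 1.58 for ENSBTAG00000039787, 1.36 for ENSBTAG00000037925, -1.88 for ENSBTAG00000001998 and -2.01 for ENSBTAG00000046796. In this order the limma adjusted p was 0.5, 0.493, 0.0797 and 0.298, so 0 of the 4 were called. All 4 had an unadjusted p under 0.05, as did 1178 of the 14742 genes tested. ENSBTAG00000039787 passed the filter through the scNT morulae alone, and ENSBTAG00000001998 would not have passed without the IVF morulae, where it is high. These counts of members are therefore a description. The fit takes 1 difference for all 3 stages and averages down a difference present in morulae alone. It therefore cannot decide whether a gene differed at a single stage before the blastocyst. Over all genes 0.0678% were called, 0.0611% as higher and 0.00678% as lower in scNT embryos. DESeq2 called ENSBTAG00000001998 in this fit (adjusted p = 4.66e-05), and edgeR called none of the 4. Without IVF 2-cell replicate 3 or IVF 8-cell replicate 4 limma also called ENSBTAG00000001998 (adjusted p = 0.0358 and 0.0481).

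The step from the 8-cell embryo to the morula was then followed within each method. In scNT embryos the genes higher in scNT blastocysts both rose, ENSBTAG00000039787 by a log2 difference of 5.97 and ENSBTAG00000037925 by 5.10 (limma adjusted p = 4.43e-05 and 0.000148). These were 2 of the 2 members tested, in a comparison where 68.9% of 13702 genes were called, 31.2% as higher and 37.7% as lower in scNT morulae. Both passed the filter through the scNT morulae, where they are high, so that this count is a description and not support. ENSBTAG00000039787 was at least 116-fold higher in scNT morulae than in scNT 8-cell embryos, taking 3 reads over the 4 scNT 8-cell libraries as the floor. The genes higher in IVF blastocysts did not pass the filter in this step, with 8.10 ± 6.32 and 5.07 ± 6.36 normalized counts in scNT morulae (SD, n = 3) and 3.15 ± 2.13 and 0.20 ± 0.40 in scNT 8-cell embryos (SD, n = 4; exact permutation p = 0.4 and 0.143).

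In IVF embryos 3 of the 3 members tested rose over the same step, where 45.9% of 13407 genes were called and 19.8% were higher in IVF morulae. All 3 passed the filter through the IVF morulae, where they are high, so that this count too is only a description. ENSBTAG00000001998 rose by 2.83 and ENSBTAG00000046796 by 2.61 on the log2 scale (limma adjusted p = 0.000405 and 0.0397). ENSBTAG00000037925 also rose, by 1.95 (limma adjusted p = 0.00654), so that this gene increased at the same step in both methods and reached a lower level in IVF morulae. The call of ENSBTAG00000046796 was lost without IVF 8-cell replicate 3 (limma adjusted p = 0.0812), without IVF morula replicates 1, 2, 3 and 4 (0.101, 0.0778, 0.0596 and 0.0633), with edgeR (0.0644) and with a pseudocount of 0.1 (0.0959). ENSBTAG00000039787 had 2 reads in IVF morulae and 1 read in IVF 8-cell embryos, and no fold is given.

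Whether the difference between the methods changed over this step was tested as an interaction, a comparison added after the values had been seen. The scNT minus IVF difference was larger in morulae than in 8-cell embryos by 5.89 for ENSBTAG00000039787 and by 3.15 for ENSBTAG00000037925 on the log2 scale (limma adjusted p = 0.0083 and 0.0147). These were 2 of the 4 members tested, in a fit where 18.2% of 14519 genes were called, 4.77% of all with this sign. ENSBTAG00000039787 passed the filter through the scNT morulae alone, where it is high, and ENSBTAG00000001998 would not have passed without the IVF morulae. This count is therefore a description and not support. For ENSBTAG00000001998 and ENSBTAG00000046796 the change was -1.77 with a 95% interval of -3.69 to 0.15 and -0.92 with an interval of -3.75 to 1.92 (limma adjusted p = 0.165 and 0.646). Both intervals include 0 and also changes of more than 3 log2 units. With edgeR and with DESeq2 the change of ENSBTAG00000046796 turned positive, so no direction is given for this gene.

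After the blastocyst the genes were followed in derived cells. In the cells derived from blastocysts ENSBTAG00000039787 had 154.6, 117.6, 183.3 and 174.5 normalized counts in the scNT libraries, against 23.6, 0.9, 1.1 and 0 in the IVF libraries. The scNT libraries were as high as in scNT blastocysts. The IVF libraries were near 0 except replicate 1, which held 21 reads. The log2 difference was 5.63 with a standard error of 0.85 (limma adjusted p = 0.0172), and without IVF derived-cell replicate 2 it was 5.39 and not called (limma adjusted p = 0.0618).

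ENSBTAG00000037925 had 173.5, 297.7, 330.1 and 237.5 normalized counts in scNT derived cells, against 72.0, 39.9, 14.8 and 18.5 in IVF derived cells. The groups did not overlap, with a depth-scaled ratio of 7.01. The log2 difference was 3.03 with a standard error of 0.45 (limma adjusted p = 0.0138), and this gene kept its call without any single library. These 2 genes were the members that passed the filter here, and 1.34% of 12390 genes were called. Both passed through the scNT libraries, and ENSBTAG00000039787 through these alone, so the share of members called is not support. That of all genes is given for scale. The 166 genes called with every library became 80, 80, 108 and 88 without IVF derived-cell replicates 1 to 4, and 97, 93 and 89 without scNT derived-cell replicates 1, 3 and 4.

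The pair higher in IVF blastocysts was largely gone from the derived cells of both methods. ENSBTAG00000001998 had no read in any of the 4 scNT libraries, against 19.1, 8.4, 0 and 2.3 normalized counts in the IVF libraries, and 3 reads over the scNT group would be 0.722 normalized counts. Against that floor it was at least 10.3-fold lower in scNT derived cells, but 1 IVF library was at 0 as well and the exact permutation p was 0.143. Without that library, IVF derived-cell replicate 3, the exact permutation p was 0.0286. It was the only library that overlapped, so leaving it out fixes this p in advance and adds no support. ENSBTAG00000046796 had no read in scNT derived cells, and in IVF derived cells 0, 0, 5.3 and 0 normalized counts (exact permutation p = 1).

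IVF derived-cell replicate 1 held the highest value of its group for 3 of the 4 genes, including ENSBTAG00000001998, which had no read in the scNT derived cells. Its mean r with the other IVF derived-cell libraries was 0.976, within their range of 0.976 to 0.977. What else set this library apart was not tested.

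The scNT minus IVF difference was compared between blastocyst-derived cells and morulae in a fit without blastocyst libraries, where limma called 5.85% of 14815 genes and 0 of the 4, with 1 of the 4 and 3631 of all genes at an unadjusted p under 0.05. The edgeR and DESeq2 fits called 0 of the 4 as well. For ENSBTAG00000039787 the difference changed by 0.03 with a 95% interval of -2.23 to 2.27, and for ENSBTAG00000037925 by -0.75 with an interval of -1.94 to 0.43. For ENSBTAG00000001998 it changed by 0.94 with an interval of -1.32 to 3.20. For ENSBTAG00000046796 it changed by 2.93 with an interval of 0.70 to 5.15 (unadjusted p = 0.013, limma adjusted p = 0.105), and it was called without IVF derived-cell replicate 3 or scNT morula replicate 2 (limma adjusted p = 0.0427 and 0.0315). The direction of this change turned with edgeR for all but ENSBTAG00000037925, being -1.78 for ENSBTAG00000039787, -2.79 for ENSBTAG00000001998 and -0.32 for ENSBTAG00000046796, so no direction is given for these genes.

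The starting cells gave each gene a different background. ENSBTAG00000037925 had 135.9, 180.1, 32.6 and 117.3 normalized counts in fibroblasts, against 7.4, 3.6, 4.3 and 1.8 in oocytes, a log2 difference of 4.35 (limma adjusted p = 9.83e-05; 78.3% of 13191 genes were called, 37.2% as higher in fibroblasts). It averaged 116 ± 61.8 in fibroblasts (SD, n = 4), or 144 ± 32.3 without replicate 3 (SD, n = 3). The scNT morula, blastocyst and derived-cell libraries held 173.5 or more, which overlapped with the highest fibroblast library in the derived cells only.

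ENSBTAG00000039787 had no read in any fibroblast or oocyte library, nor in any scNT or IVF 2-cell or scNT 8-cell library, which makes 20 libraries in 5 groups. In fibroblasts, 3 reads over the group would correspond to 0.601 normalized counts. Its transcripts in scNT morulae were therefore not seen in the fibroblasts profiled here at that limit. ENSBTAG00000001998 had no read in fibroblasts and 3.1, 5.2, 2.5 and 4.4 normalized counts in oocytes (24 reads in all; exact permutation p = 0.0286). ENSBTAG00000046796 had no read in either, and like ENSBTAG00000039787 was without reads in 30 of the 47 libraries.

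Ordered by mean, scNT derived cells, scNT blastocysts and scNT morulae led for ENSBTAG00000039787, with 158 ± 29.2, 145 ± 18.7 and 64.1 ± 22.6 normalized counts (SD, n = 4, 4 and 3). The first of these overlapped with the second, and the scNT morulae lay apart from both neighbours in the order. For ENSBTAG00000037925 the order was scNT blastocysts, scNT derived cells and scNT morulae, with 373 ± 118, 260 ± 69.1 and 247 ± 49.5, and neighbours overlapped. For ENSBTAG00000001998 IVF blastocysts led with 124 ± 28.6, followed by IVF morulae with 68.7 ± 13.6 and IVF 8-cell embryos with 9.22 ± 3.69 (n = 4 each), and these 3 groups did not overlap with each other. For ENSBTAG00000046796 the same 3 groups led, with 109 ± 54.8, 48.1 ± 24.5 and 12.0 ± 12.2, of which blastocysts and morulae overlapped.

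Within each pair the genes resembled each other across the series. Over the 47 libraries the Pearson r of log2(value + 1) was 0.799 between the genes higher in scNT and 0.798 between the genes higher in IVF blastocysts, while r between genes of different pairs ran from -0.243 to 0.03. These values describe libraries that share stages and methods, and the genes were chosen for their blastocyst levels.

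The other genes whose pattern was most like each member were found by the same r among genes with 10 normalized counts in at least 3 libraries. Nearest to ENSBTAG00000037925 were ENSBTAG00000022796 and ENSBTAG00000027075, with r = 0.932 and 0.93. The first of these had a mean of 333 normalized counts in scNT and 26 in IVF morulae, and of 563 in scNT and 74.6 in IVF blastocysts. Its mean was 586 in scNT and 41.2 in IVF derived cells, and 620 in fibroblasts. Like the member, it was high in fibroblasts and in all 3 later scNT groups. Nearest to ENSBTAG00000039787 were ENSBTAG00000006060 and ENSBTAG00000012158, with r = 0.871 and 0.869. They had means of 23.7 and 20.2 in scNT morulae, against 0.8 and 1.45 in IVF morulae, and of at most 0.8 in fibroblasts.

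One gene, ENSBTAG00000031825, was nearest to both members higher in IVF blastocysts, with r = 0.814 to ENSBTAG00000001998 and 0.876 to ENSBTAG00000046796. It had a mean of 0 in scNT and 12.9 normalized counts in IVF morulae, and of 0.325 in scNT and 13.8 in IVF blastocysts. Its mean was 0 in the derived cells of both methods. The second nearest was ENSBTAG00000032790 for the first member (r = 0.813) and ENSBTAG00000034437 for the second (r = 0.862). ENSBTAG00000034437 differed from that member after the blastocyst, with means of 1.85 in scNT and 39.8 in IVF derived cells.

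**Figure D3:**
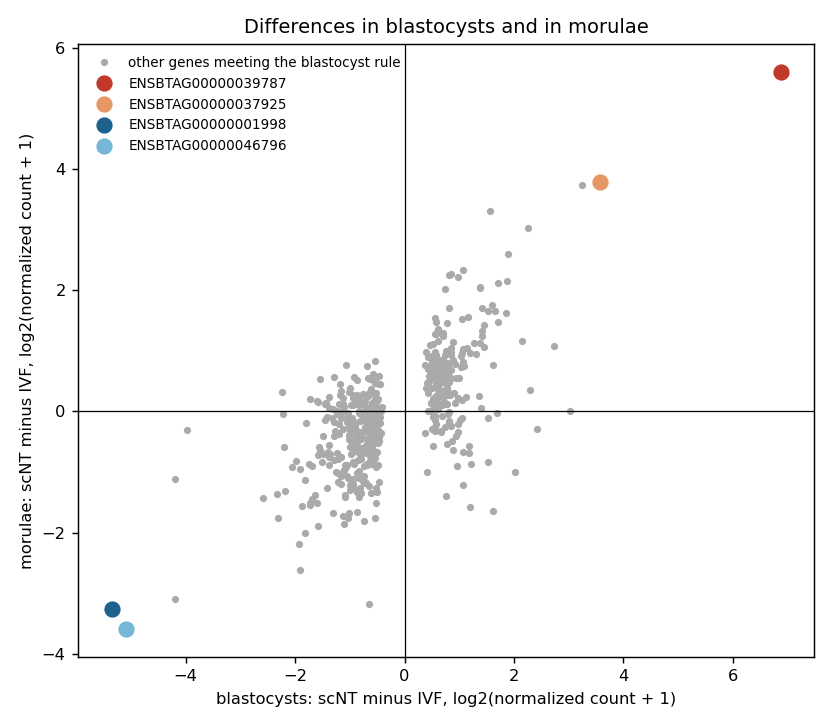
Differences between scNT and IVF (scNT minus IVF, log2(normalized count + 1)) in blastocysts on the x axis and in morulae on the y axis, for the 539 genes that met the blastocyst rule and were tested in morulae, with the 4 members coloured. The 2 comparisons share no library. The members lie at the ends of the x axis by choice, and in morulae they lie at 5.61, 3.78, -3.26 and -3.59.

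The members were set beside the 547 genes that met the blastocyst rule, to see how often such a difference was present in morulae. Of the 248 genes higher in scNT blastocysts that were tested in morulae, 95 (38.3%) were called in the same direction and 5 in the opposite one, where 7.37% of all genes were called higher in scNT morulae. Of 291 genes higher in IVF blastocysts, 93 (32%) were called lower in scNT morulae and 1 higher, where 11.3% of all genes were called lower. The split over all genes depended on scaling, with 1002 higher and 1540 lower in scNT morulae as deposited and 416 and 1953 with equal library totals. In the derived cells 14 of 238 (5.88%) and 6 of 261 (2.3%) kept their direction with a call, against 0.638% and 0.702% of all genes. Of the genes that differed at least 8-fold in blastocysts, members included, 3 of 4 tested that were higher in scNT and 3 of 5 tested that were higher in IVF were called in the same direction in morulae. In the derived cells these were 4 of 5 and 0 of 1 tested. The members make up much of these counts, which are therefore no outside comparison for them. Of the other genes, ENSBTAG00000022796 and ENSBTAG00000034437 were called in morulae, and ENSBTAG00000009341, ENSBTAG00000039817 and ENSBTAG00000039693 were not. In derived cells ENSBTAG00000022796 and ENSBTAG00000009341 were called, and ENSBTAG00000001191 and ENSBTAG00000039693 were not.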

How the data were processed

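The libraries were prepared from RNA with a kit for small inputs that includes PCR, per the labels' protocols. Molecular identifiers are not mentioned there, so counting intervals and floors cover counting error only. The authors deposited 1 signal per gene and library, a normalized read count with 1 decimal. Build UMD3.1 and the tools STAR, DESeq2, FastQC and MultiQC are named, per the submitters' processing notes. Tool versions, annotation, counting program and strand setting were not given in the sources used here. Overlapping or near-identical genes could share reads.

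In a library, values came in steps of what 1 read was worth (96.1% to 100% of the values above 0 tested were whole steps within 0.1 of a read), which gave the recovered reads used for depth, floors of 3 reads and the count tests. No replicate pair of the 69 agreed within sampling noise (chi-square over its degrees of freedom at least 6.67). Of the 20526 identifiers 0 matched the reference table (ARS-UCD2.0), so marker lists were not used.

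Genes reaching 10 normalized counts in as many libraries as the smallest group has were tested in R 4.3.3 with limma 3.58.1 (trend, robust) on log2(value + 1), which understates changes of low genes. The fit took the groups compared, with Benjamini-Hochberg adjustment over all genes tested, two-sided, and calls at 0.05. Members below the filter have a two-sided exact permutation test over libraries, unadjusted. The alternatives used edgeR 4.0.16 and DESeq2 1.42.0 on recovered reads, other pseudocounts, scalings and filters, a replicate block and the omission of each library. Same-numbered scNT and IVF libraries deviated together at the 2-cell stage (r from 0.118 to 0.683 over 4 pairs) and at the 8-cell stage (0.231 to 0.563). The numbers were therefore taken to pair them there, but not in morulae, blastocysts or derived cells. This pairing is an inference: of 4 scNT libraries, 2 (2-cell), 4 (8-cell) and 3 (derived cells) correlated best with their own number. Paired values of members at these stages come from an exact sign-flip test. The members, lists and comparisons were chosen with earlier results of these data known. The named genes were the 4 members and the 2 genes most like each. The interaction of morulae with 8-cell embryos was added after the values were seen.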

Additional observations from a re-analysis of the deposited data

Results flagged for a closer look

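In 7 of 32 sets of 4 libraries with some spread, 1 library lay far from the other 3 by Dixon's ratio. Chance flags about 1 in 20 groups of continuous values, a share that cannot be set beside this one, since a lone value among zeros always passes. The only ones above 5 reads were ENSBTAG00000039787 in IVF derived-cell replicate 1, at 23.6 normalized counts with the next library at 1.1, and ENSBTAG00000037925 in scNT 8-cell replicate 2, at 21.3 with the next at 5.6. The other 5 were single low values in groups otherwise at 0. They were ENSBTAG00000039787 in IVF 8-cell replicate 2 (1.2), IVF morula replicate 4 (1.7) and IVF blastocyst replicate 3 (1.3), and ENSBTAG00000046796 in scNT 8-cell replicate 2 (0.8) and IVF derived-cell replicate 3 (5.3).

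The scNT minus IVF difference changed between 8-cell embryos and morulae by 5.89 for ENSBTAG00000039787 and by 3.15 for ENSBTAG00000037925 on the log2 scale, by the interaction term given above.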

How the results depend on the processing

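Of all results under all alternatives, 772 kept direction and side of the threshold (counts within 1.5 times), 69 values or counts moved, 19 fell below the threshold, 14 passed it and 25 changed sign; where a cause is not given, it was not tested. With a replicate block, morulae gave 2 called genes and member differences of 5.49, 3.747, -3.357 and -3.293 (limma adjusted p from 0.0627 to 0.0714, 0 of 4 called). That fit lacks IVF morula replicate 1, and same-numbered morulae did not deviate together (r from -0.143 to 0.0984). The block gave 168 called genes at the 8-cell stage, 302 in derived cells, 6 over the 3 earlier stages, and -2.227 for ENSBTAG00000001998 in fibroblasts against oocytes, where a sign-flip test over 4 pairs cannot pass (exact p = 0.125). DESeq2 gave 9, 378, 455, 49 and 1393 called genes (2-cell, 8-cell, derived cells, earlier stages together, change from morulae to derived cells), and -2.282 for ENSBTAG00000001998 over the earlier stages. Further counts were 2 (2-cell, pseudocount 0.1), 2 (2-cell, edgeR), 3, 2, 1 and 1 (8-cell, with pseudocount 10, no filter, equal totals and median of ratios) and 1392 (change from morulae to derived cells, pseudocount 10). At the 2-cell stage ENSBTAG00000037925 was -0.04, -0.087 and -0.049 with pseudocount 10, equal totals and median of ratios. At the 8-cell stage ENSBTAG00000001998 was -1.625 and -1.633 with equal totals and median of ratios. In morulae ENSBTAG00000046796 was -4.825 with pseudocount 0.1. For the change from morulae to derived cells, ENSBTAG00000039787 was -1.323 (pseudocount 0.1), -1.78 (edgeR) and -2.134 (DESeq2), ENSBTAG00000001998 was -1.11, -2.785 and -2.269 under the same settings and 1.489 with pseudocount 10, and ENSBTAG00000046796 was 1.791 with pseudocount 10 and -0.316 with edgeR. For the change from 8-cell embryos to morulae, ENSBTAG00000001998 was -1.625 with pseudocount 10, and ENSBTAG00000046796 was 2.236 with edgeR and 2.59 with DESeq2. Within IVF, ENSBTAG00000046796 was 3.493 (pseudocount 0.1) and 2.151 (edgeR) between morulae and 8-cell embryos. Leaving out single libraries gave called genes between 0 and 8 (2-cell), 0 and 82 (8-cell), 114 and 2666 (morula), 316 and 860 (blastocyst), 80 and 134 (derived cells), 300 to 1044 for the change from morulae to derived cells and 1185 to 4346 for that from 8-cell embryos to morulae. The same omissions moved ENSBTAG00000037925 from -0.497 to 0.479 at the 2-cell stage, and ENSBTAG00000039787 from 5.083 to 6.623 in derived cells and from -0.527 to 1.013 for the change from morulae. ENSBTAG00000001998 ranged from -1.395 to -0.771 (2-cell), -1.762 to -0.897 (8-cell), -3.802 to -2.505 (morula), -3.095 to -1.652 (derived cells) and -2.02 to -1.594 (earlier stages together). ENSBTAG00000046796 ranged from -3.641 to -2.017 (8-cell), -4.5 to -2.639 (morula), 1.975 to 3.836 (change from morulae to derived cells), -1.822 to 0.049 (change from 8-cell embryos to morulae) and 1.647 to 3.271 (IVF morulae against IVF 8-cell embryos). With equal library totals 416 genes were called higher and 1953 lower in scNT morulae (1002 and 1540 as deposited), and 169 and 914 in scNT blastocysts (319 and 431). The changes among derived cells and morulae were 829 higher and 151 lower (547 and 320), or 717 and 229 with median of ratios. Equal totals moved the median of all genes from 0.05 to -0.10 in morulae and from -0.01 to -0.15 in blastocysts. In morulae the member differences with equal totals were 5.308, 3.619, -3.339 and -3.602. Before the morula the members had at most 55 reads in a group. The 2-cell and 8-cell libraries held 5939973 to 16642362 reads, and the morula libraries 4783919 to 8241675. Whether depth played a part in the low counts was not tested.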
